A study of Mus musculus with 12 samples.

Results

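The miRNAs of the imprinted Dlk1-Dio3 domain of mouse chromosome 12 were examined in colon and whole blood of mice with colitis induced by dextran sulfate sodium (DSS). The list was taken by name from the count table, and 54 of 54 listed mature miRNAs had a row, of 1978 rows in all. Of these, 16 derive from the 12 hairpins between mir-673 and mir-370, called the proximal group here, and 38 from the 31 hairpins between mir-379 and mir-410, called the distal group. Small RNA was sequenced from the colon and blood of the same 6 male C57BL/6 mice, giving 12 libraries. The 3 DSS mice received 1.5% (wt/vol) DSS in their drinking water for 7 days and were killed on day 8, and the 3 control mice, kept over the same period, drank water with no DSS added. DSS damages the epithelium of the colon, so the model is of chemical injury. The labels name no transgene or mutant allele in either group.

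The DSS group here is mice 1, 7 and 9 and the control group is mice 2, 4 and 8, after the names of the libraries in the study's heatmaps. The disease state field of the sample labels gives another grouping, with mice 1, 2 and 4 as colitis and mice 7, 8 and 9 as controls, and every DSS result below rests on the first grouping. The source and tissue fields of each label name opposite tissues, and the tissue field was followed. The erythrocyte miRNAs mir-486a-5p and mir-486b-5p, close copies that may share reads, held 78.2% of all counts of the libraries taken as blood, and the epithelial miRNA mir-192-5p had 5790974 counts in those taken as colon against 79852 in blood. A colon library held 15060553 to 20106226 counts and a blood library 21127134 to 32944792.

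The domain is imprinted: Dlk1, Rtl1 and Dio3 are transcribed from the paternal chromosome, while the noncoding RNAs Meg3, Rian and Mirg and the miRNAs are made from the maternal one, in one direction and largely as one long transcription unit. A miRNA hairpin is cut into 2 arms, 5p and 3p, and bases 2 to 8 of the arm that is loaded, the seed, pair with target mRNAs. The miRNAs of this domain are best known from brain, embryo and placenta, where those of the mir-379 to mir-410 stretch act in neurons, and they are low in most adult tissues.

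In build GRCm38, RefSeq places the proximal hairpins in chr12:109571990-109618336 and the distal hairpins in chr12:109709060-109743795, with 90723 bases between them. All 42 hairpins with an entry lie on the plus strand. In the GENCODE annotation 5 of them, mir-431, mir-433, mir-127, mir-434 and mir-136, lie opposite the exon of Rtl1 on the minus strand, and the miRNAs of these hairpins are known to cut the Rtl1 mRNA. Hairpins mir-341 and mir-370 lie in an intron of Rian, 7 lie in exons and 4 in introns of Mirg, and 24 lie between annotated genes. The first sequences shown are those of the most abundant listed miRNAs in colon, with the seed in capitals, and together they held 70.5% of the listed counts there.
mmu-mir-127-3p: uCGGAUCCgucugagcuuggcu
mmu-mir-379-5p: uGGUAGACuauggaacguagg
mmu-mir-541-5p: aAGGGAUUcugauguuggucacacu
mmu-mir-434-5p: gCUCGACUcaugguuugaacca
mmu-mir-434-3p: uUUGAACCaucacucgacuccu

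The sequences that follow belong to listed miRNAs with some of the largest differences between DSS and control mice in colon.
mmu-mir-494-3p: uGAAACAUacacgggaaaccuc
mmu-mir-493-5p: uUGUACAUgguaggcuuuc
mmu-mir-341-3p: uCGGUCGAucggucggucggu
mmu-mir-409-5p: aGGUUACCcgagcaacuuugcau
mmu-mir-369-3p: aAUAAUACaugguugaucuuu
mmu-mir-337-5p: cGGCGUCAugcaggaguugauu

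The last set shows the listed miRNAs that are most alike. Rows mmu-mir-379-3p and mmu-mir-411-3p are the only listed miRNAs with the same seed as another, out of 53 distinct seeds, and differ at 2 of 22 bases, while mmu-mir-300-3p and mmu-mir-381-3p differ at 3 of 22 bases and have unlike seeds.
mmu-mir-379-3p: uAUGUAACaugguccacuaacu
mmu-mir-411-3p: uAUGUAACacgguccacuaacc
mmu-mir-300-3p: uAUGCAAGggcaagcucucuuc
mmu-mir-381-3p: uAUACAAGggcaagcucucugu

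Reads of such close pairs may be split between them. The sequence of mmu-mir-299a-3p also holds that of mmu-mir-299b-3p, a row outside the list with 14 counts in colon. Of the 54 sequences, 51 matched a RefSeq mature entry (GRCm38.p6) and 3 were taken from the deposited tables alone. Where a listed miRNA had no deposited sequence that of RefSeq was taken, and a match of this kind is fixed in advance. Among the seeds, 6 also occur in rows outside the list. A first base U was present in 24 of 54 (44.4%), against 216 of 542 (39.85%) of all miRNAs tested in colon, and the median length was 22 bases in both.

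Because the maternal RNAs are read from the start of Meg3, the RefSeq window around that start is shown, chr12:109540746-109541045 on the plus strand of GRCm38.p6, with the matches to 3 motifs in capitals.
Meg3: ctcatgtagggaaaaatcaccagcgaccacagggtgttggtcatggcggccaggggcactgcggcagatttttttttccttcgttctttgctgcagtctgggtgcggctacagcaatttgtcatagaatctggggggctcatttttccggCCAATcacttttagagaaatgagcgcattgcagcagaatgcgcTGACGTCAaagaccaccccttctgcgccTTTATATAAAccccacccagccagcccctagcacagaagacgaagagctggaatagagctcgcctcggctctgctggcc

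Motif TGACGTCA, the palindrome bound by CREB and ATF factors, matched 57 bases before the start and occurs on either strand of 1.79% of the 32851 promoter windows. Motif TATAAA matched on both strands, 25 and 29 bases before the start in overlapping letters, and occurs in 13.6% of windows. Motif CCAAT matched 100 bases before the start and occurs in 37.4% of windows. These are matches of letters and were not tested for binding.

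In colon, the summed level of the listed miRNAs was higher in every DSS mouse than in the controls. Their counts summed to 67269, 74076 and 104457 in DSS mice 1, 7 and 9 and to 44714, 43935 and 45891 in control mice 2, 4 and 8. As a share of all counts of the library this was 0.447%, 0.435% and 0.520% against 0.291%, 0.248% and 0.253%, so all DSS mice were above all control mice. After scaling by TMM factors the summed level was 4346 ± 416 CPM (counts per 1000000, SD, n = 3) with DSS against 2836 ± 167 CPM (SD, n = 3) without it, a ratio of 1.53. A two-sided exact permutation test of 3 mice against 3 cannot give a p under 0.1, so single miRNAs were tested in a model of all miRNAs.

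That model was edgeR's quasi-likelihood test on the counts of the 6 colon libraries, with Benjamini-Hochberg adjustment over the 542 miRNAs that passed a filter on low counts. A miRNA was called when its adjusted p was at most 0.05 and its fold change over 1.5. Among 47 listed miRNAs that passed the filter 14 were called, all higher in DSS mice, where 10.1% of all miRNAs tested were called in either direction and 5.90% were called higher. The split over all miRNAs, 32 higher and 23 lower, moved with the scaling, to 38 and 9 with library totals alone and to 6 and 10 with RLE factors. A further 6 had an adjusted p of at most 0.05 with a smaller fold change, among 9 such of all 542, and 34 had an unadjusted p under 0.05, among 170 of all. The log2 fold change was above 0 for 46 of the 47, against 52.4% of all miRNAs tested, and its median was 0.63 against 0.04 for all. Every DSS mouse was above every control mouse for 37 of the 47, against 22.5% of all, and no listed miRNA had the opposite order. The calls are close to the threshold: 13 of the 14 had an adjusted p between 0.0431 and 0.0491.

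The calls moved with the scaling and with the mice that entered. Among the listed miRNAs 2 were called with RLE factors, where 16 of all 542 were, and 1 with upper-quartile factors, where 8 of 542 were. Without mouse 2, 4, 7 or 8 no miRNA of the whole table was called by this test, with 27 to 33 of the listed ones at an unadjusted p under 0.05, without mouse 1 there were 3 calls among the 47 listed miRNAs and 44 among all 569, and without mouse 9 there were 7 among the 47 and 37 among all 549. The median log2 fold change of the listed miRNAs in these fits was 0.57 to 0.64. With all 12 libraries in 1 fit 0 listed miRNAs and 0 of all 680 were called, with 11 listed ones at an unadjusted p under 0.05, DESeq2 called 12 of 53, of which 10 were among the 14, and 74 of all 1300, and limma called 6 of 47 and 37 of all 542. Under the grouping of the disease state label 0 listed miRNAs and 0 of all 542 were called by edgeR, 1 listed miRNA had an unadjusted p under 0.05, and the median was -0.17.

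**Figure D1:**
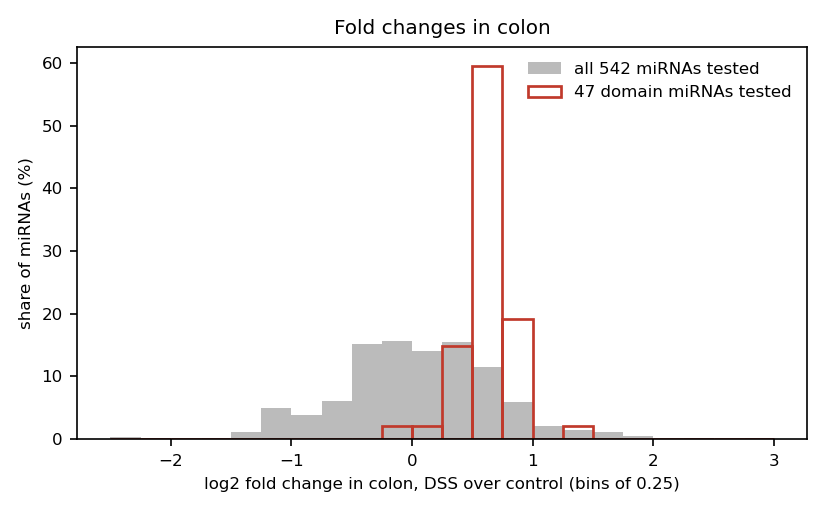
Histogram of log2 fold changes in colon, DSS over control, in bins of 0.25, as a share (%) of all 542 miRNAs tested (grey bars) and of the 47 listed domain miRNAs tested (red outline). Of the listed miRNAs 59.6% fall between 0.5 and 0.75, where 11.4% of all miRNAs fall.

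The listed miRNAs also differed little among themselves in this response. The SD of the log2 fold changes was 0.22 over the 47 and 0.65 over all 542 miRNAs. Since a miRNA can pass the filter through its high group alone, the levels were also read in the controls: 43 of the 47 reached the filter's level, 0.576 CPM of the library total, in every control library, and the log2 fold change was above 0 for all 43, with a median of 0.63. Without a filter 52 of the 53 listed miRNAs with a count in colon had a log2 fold change above 0. The 7 that did not pass were mmu-mir-665-3p, mmu-mir-337-3p, mmu-mir-299a-5p, mmu-mir-376a-3p, mmu-mir-377-3p, mmu-mir-539-5p and mmu-mir-654-3p. They had at most 12 counts in any colon library, and mmu-mir-654-3p had 0 counts in all 12 libraries.

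**Figure D2:**
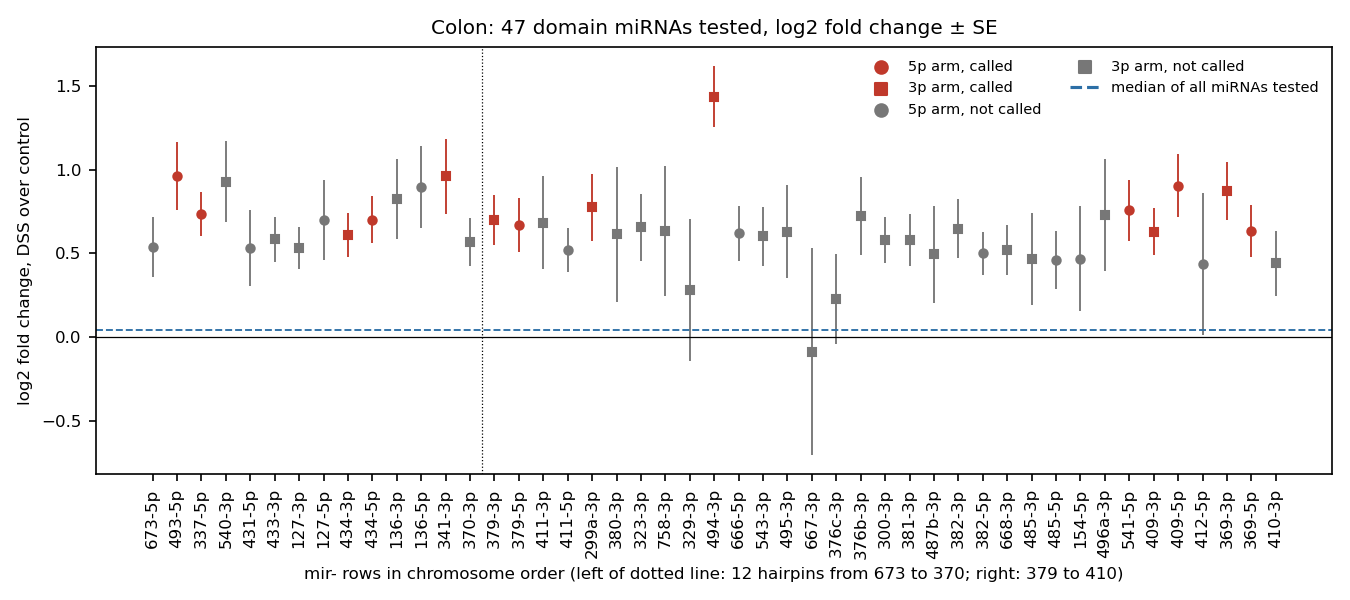
Log2 fold change in colon, DSS over control, with its standard error for the 47 listed domain miRNAs tested, in the order of their hairpins along the chromosome. Circles are 5p arms and squares 3p arms, red marks the 14 called miRNAs, the dashed line is the median of all miRNAs tested (0.04) and the dotted line parts the proximal from the distal group; only mir-667-3p lies below 0, and mir-494-3p lies highest at 1.43.

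The most abundant listed miRNA was mmu-mir-127-3p, at chr12:109592888-109592909 opposite Rtl1. It was at 1481, 1401 and 1267 CPM in DSS mice 1, 7 and 9 and at 997, 853 and 1015 CPM in control mice 2, 4 and 8. The groups did not overlap, the log2 fold change was 0.53 ± 0.13 (SE), and the adjusted p by edgeR was 0.0475, but the fold change of 1.45 was under the limit for a call. It made up 32.5% of all counts of the listed miRNAs in colon. Its other arm, mmu-mir-127-5p, was at 20.1, 17.9 and 16.1 CPM against 14.9, 9.90 and 8.59 CPM, again without overlap, with an adjusted p of 0.0997.

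The 2 arms of mir-434, from the same stretch opposite Rtl1, were both called. Arm mmu-mir-434-5p was at 285, 228 and 266 CPM in the DSS mice and at 174, 148 and 157 CPM in the controls. Arm mmu-mir-434-3p was at 177, 165 and 171 CPM against 125.8, 106 and 105 CPM. Neither arm overlapped between the groups, and the log2 fold changes were 0.70 ± 0.14 (SE) and 0.61 ± 0.13 (SE), both with an adjusted p of 0.0431. Also opposite Rtl1, but before mir-127, mmu-mir-433-3p was at 121, 121 and 132.7 CPM against 88.3, 85.7 and 76.3 CPM, with the same adjusted p and a fold change of 1.498, just under the limit. The remaining miRNAs opposite Rtl1 were not called: adjusted p was 0.163 for mmu-mir-431-5p, 0.0590 for mmu-mir-136-5p and 0.0723 for mmu-mir-136-3p, although none of the 3 overlapped between the groups.

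Elsewhere in the proximal group, mmu-mir-337-5p had little spread within the groups. It was at 53.8, 55.9 and 55.1 CPM in DSS mice and at 34.0, 32.7 and 32.4 CPM in controls, a log2 fold change of 0.73 ± 0.13 (SE). Its other arm, mmu-mir-337-3p, was at 0.502, 0.677 and 0.310 CPM against 0.0667, 0.362 and 0.376 CPM and overlapped between the groups. Row mmu-mir-493-5p was at 8.53, 7.10 and 6.66 CPM against 4.33, 3.08 and 4.01 CPM, and mmu-mir-341-3p, from the intron of Rian, at 12.2, 8.12 and 12.9 CPM against 6.40, 5.62 and 5.08 CPM. These were the largest fold changes of the proximal group, 1.95 and 1.94, with adjusted p of 0.0431 and 0.0471. Row mmu-mir-540-3p had a fold change of 1.90 and an adjusted p of 0.0515, just past the threshold. Adjusted p was 0.0491 for mmu-mir-370-3p and 0.0916 for mmu-mir-673-5p, with fold changes of 1.48 and 1.45. For all 14 proximal miRNAs tested the lowest DSS mouse lay above the highest control mouse (22.5% of all miRNAs tested), 5 of them were called higher (5.90% of all), and their median log2 fold change was 0.70.

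In the distal group the most abundant were mmu-mir-379-5p, the first of the stretch at chr12:109709065-109709085, and mmu-mir-541-5p, near its end at chr12:109742422-109742446 in an intron of Mirg. Row mmu-mir-379-5p was at 767, 603 and 521 CPM in DSS mice and at 397, 375.2 and 418 CPM in controls, and mmu-mir-541-5p at 817, 541.4 and 560 CPM against 400, 372 and 363 CPM. Mouse 1 was the highest DSS mouse for both. Both were called, with log2 fold changes of 0.67 ± 0.16 (SE) and 0.76 ± 0.18 (SE) and an adjusted p of 0.0491 each. The 3p arm mmu-mir-379-3p was at 12.3, 12.97 and 11.3 CPM against 7.20, 7.43 and 7.83 CPM and was called too, with a log2 fold change of 0.70 ± 0.15 (SE). Its seed partner mmu-mir-411-3p was at 25.9, 29.4 and 21.9 CPM against 17.3, 20.6 and 10.2 CPM, a like fold change (1.60 and 1.62) with a wider spread and an adjusted p of 0.148.

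The largest fold change of all listed miRNAs was that of mmu-mir-494-3p, at chr12:109715367-109715388 between annotated genes. It had 130 to 253 counts in the DSS libraries and 48 to 60 in the controls. In CPM it was at 9.31, 8.68 and 9.79 against 3.999, 2.90 and 3.38 with a wide gap between the groups. The log2 fold change was 1.43 ± 0.18 (SE), a fold change of 2.70, with an adjusted p of 0.0168. The next largest, mmu-mir-493-5p, was at 0.96. For mmu-mir-494-3p the log2 fold change was 1.31 to 1.66 over the 14 alternatives that kept the grouping.

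Toward the end of the distal group, both arms of mir-409 and both arms of mir-369 were called. Arm mmu-mir-409-3p was at 133.6, 116 and 125 CPM in DSS mice and at 84.6, 72.3 and 85.1 CPM in controls, and mmu-mir-409-5p at 12.8, 10.8 and 10.1 CPM against 5.13, 5.80 and 7.02 CPM. Arm mmu-mir-369-3p was at 6.81, 7.33 and 8.71 CPM against 4.40, 4.29 and 3.82 CPM, and mmu-mir-369-5p at 13.1, 14.8 and 14.2 CPM against 8.20, 9.60 and 9.34 CPM. No arm overlapped between the groups, and the fold changes were 1.55, 1.87, 1.83 and 1.55. The last call was mmu-mir-299a-3p, with a fold change of 1.71 and an adjusted p of 0.0491.

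Other abundant distal miRNAs stayed under the fold limit or past the p threshold, with the same order of the groups. Row mmu-mir-382-5p was at 170, 163 and 155.3 CPM in DSS mice and at 113, 107 and 124 CPM in controls, with an adjusted p of 0.0491 and a fold change of 1.42. Row mmu-mir-411-5p was at 139, 123 and 116 CPM against 90.05, 86.1 and 87.1 CPM, with an adjusted p of 0.0491 and a fold change of 1.43. Row mmu-mir-381-3p was at 135.8, 124 and 126.98 CPM against 102, 78.1 and 78.2 CPM, with an adjusted p of 0.0580. None of the 3 overlapped between the groups. Arm mmu-mir-382-3p was at 37.3, 40.6 and 42.1 CPM against 29.8, 21.3 and 25.5 CPM, with a fold change of 1.57 and an adjusted p of 0.0580. Row mmu-mir-300-3p, 3 bases from mmu-mir-381-3p, had a fold change of 1.49, as did mmu-mir-381-3p, and an adjusted p of 0.0471.

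**Figure D3:**
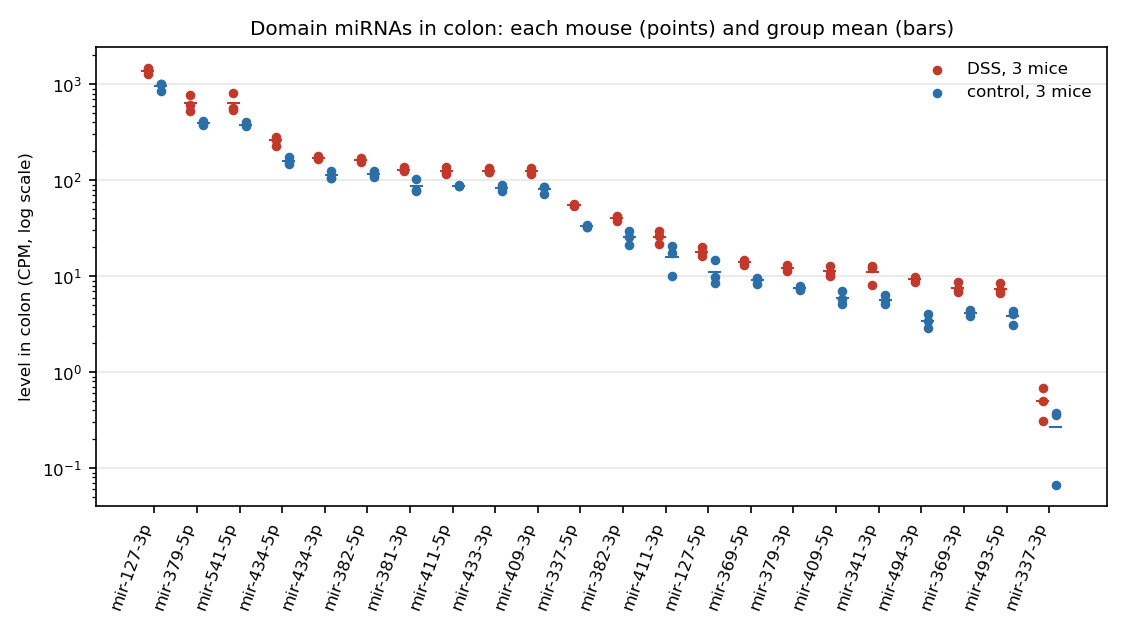
Level in colon (CPM, log scale) of 22 named domain miRNAs in each DSS mouse (red points) and control mouse (blue points), with group means as bars. The miRNAs run from mir-127-3p, at a mean of 1169 CPM over 6 mice, to mir-337-3p at 0.382 CPM, and in all but mir-337-3p the 3 DSS mice lie above the 3 control mice. Some of the 22 were named because they were called or did not overlap, so this order is partly fixed by the choice. Among all 47 listed miRNAs tested 37 had it, against 22.5% of all miRNAs tested.

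Of the remaining distal miRNAs, mmu-mir-667-3p had a log2 fold change of -0.09 ± 0.62 (SE) and was at 0.430, 1.63 and 0.619 CPM in DSS mice and at 1.00, 0.423 and 1.44 CPM in controls. The log2 fold change was 0.28 for mmu-mir-329-3p and 0.23 for mmu-mir-376c-3p, both with overlap between the groups. In order of decreasing abundance, mmu-mir-323-3p, mmu-mir-485-5p, mmu-mir-543-3p, mmu-mir-410-3p, mmu-mir-668-3p, mmu-mir-666-5p and mmu-mir-376b-3p did not overlap and had fold changes of 1.36 to 1.65 with adjusted p of 0.0544 to 0.168. The same order holds for mmu-mir-154-5p, at 1.43, 1.69 and 1.70 CPM against 1.40, 0.725 and 1.38 CPM, by a narrow gap. The groups overlapped for mmu-mir-495-3p, mmu-mir-485-3p, mmu-mir-487b-3p, mmu-mir-496a-3p, mmu-mir-380-3p, mmu-mir-412-5p and mmu-mir-758-3p, whose fold changes were 1.35 to 1.65 with adjusted p of 0.169 to 0.502. In the distal group as a whole 9 of 33 tested were called higher (5.90% of all), 23 had every DSS mouse above every control mouse (22.5% of all), and the median log2 fold change was 0.62.

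By arm, 7 of 17 tested 5p rows and 7 of 30 tested 3p rows were called higher (5.90% of all), with median log2 fold changes of 0.63 and 0.62. Both arms of 11 hairpins are in the list, and the 5p arm was the more counted one in 7 of them and the 3p arm in 4. The more counted arm held from 59.7% of the counts in colon, for mir-434, to 99.2%, for mir-337. The share of the 3p arm overlapped between DSS and control mice for all 11 hairpins. Among hairpins of the domain with an arm outside the list it did not always overlap. It was lower with DSS for mir-493, at 7.03% to 14.9% against 15.6% to 20.3%, and for mir-134, at 0.308% to 0.638% against 0.926% to 1.37%. It was higher with DSS for mir-412 and mir-679, with 3 and 9 counts of the 3p arm. For mir-434 that share was 39.9% ± 1.9 (SD, n = 3) with DSS and 41.2% ± 1.0 (SD, n = 3) without, and for mir-127 98.7% ± 0.047 (SD, n = 3) and 98.8% ± 0.32 (SD, n = 3).

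In the make-up of the total, mmu-mir-127-3p held 31.9% ± 1.5 (SD, n = 3) of the listed counts in DSS colon and 33.6% ± 1.6 (SD, n = 3) in control colon, mmu-mir-379-5p 14.4% ± 1.5 (SD, n = 3) and 13.99% ± 0.62 (SD, n = 3), and mmu-mir-541-5p 14.6% ± 2.1 (SD, n = 3) and 13.4% ± 0.71 (SD, n = 3). These 3 held 60.6% of the listed counts in colon and the top 10 held 86.2%. The shares of most members overlapped between the groups. Among the exceptions, that of mmu-mir-494-3p was 0.193% to 0.242% with DSS and 0.109% to 0.134% without. Those of mmu-mir-493-5p and mmu-mir-409-5p were higher in all DSS mice too. That of mmu-mir-411-5p was lower, at 2.87% to 2.94% against 3.02% to 3.25%. The shares of all other members overlapped. Among many rows of 3 mice against 3 some such orders arise without a change, and these shares were not tested. The proximal group summed to 2124 ± 118 CPM (SD, n = 3) with DSS and 1424 ± 106 CPM (SD, n = 3) without, and the distal group to 2222 ± 298.3 CPM (SD, n = 3) and 1412 ± 62.4 CPM (SD, n = 3).

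The domain has 60 other mature rows in the table, among them other arms of the same hairpins. Of these, 44 had a count in colon and 17 were tested. The log2 fold change was above 0 for 16 of the 17 (52.4% of all miRNAs tested), with a median of 0.40. Every DSS mouse was above every control mouse for 5 of the 17 (22.5% of all), and 12 overlapped. Among the 17 tested 1 was called higher, where 5.90% of all miRNAs tested were. That row, mmu-mir-134-5p, is known for limiting the size of dendritic spines in neurons. It was at 44.9 ± 1.3 CPM (SD, n = 3) with DSS and 24.9 ± 4.8 CPM (SD, n = 3) without, with a log2 fold change of 0.85 ± 0.19 (SE) and an adjusted p of 0.0431. Imprinted miRNAs from outside the domain were looked up too. Of 10 such rows 5 were tested, and all 5 had a log2 fold change above 0 (52.4% of all miRNAs tested). None of the 5 overlapped between the groups, where 22.5% of all had every DSS mouse above every control mouse. Called higher were 2 of the 5 (5.90% of all), mmu-mir-296-3p and mmu-mir-298-5p of the Gnas locus. Their log2 fold changes were 1.18 ± 0.28 (SE) and 1.15 ± 0.25 (SE). Arms mmu-mir-335-3p and mmu-mir-335-5p, from the imprinted Mest gene, had log2 fold changes of 0.72 and 0.76 with adjusted p of 0.0728 and 0.0764. Rows of mir-675 had 0 counts in all colon libraries and the 2 rows of mir-483 had 28 in all.

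Markers of other cell types moved in the same libraries. In bulk tissue a miRNA made by fewer or more cells and one made at another level in each cell cannot be told apart. The 9 epithelial miRNAs summed to 55648 to 136210 CPM in DSS mice and 162998 to 204144 CPM in controls, with 8 of 9 log2 fold changes below 0 and 4 called lower, among them mmu-mir-192-5p at a log2 fold change of -1.29. The 4 myeloid miRNAs summed to 368 to 1123 CPM in DSS mice and 253 to 379.1 CPM in controls, with 2 called higher, and the 3 lymphocyte miRNAs to 51.5 to 182 CPM and 63.1 to 96.6 CPM, with 1 called higher.

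The 7 miRNAs of neurons and glia summed to 1683 to 2034 CPM in DSS mice and 1364 to 1520 CPM in controls, with mmu-mir-128-3p the largest part, at means of 969 and 852 CPM. In blood mmu-mir-128-3p was at means of 4749 CPM with DSS and 4420 CPM without. The sum can therefore not be read as neurons alone. Among the 6 tested the median log2 fold change was 0.58, and 1 was called, mmu-mir-129-5p at 0.66 ± 0.15 (SE). Rows mmu-mir-9-5p, mmu-mir-9-3p and mmu-mir-138-5p, at log2 fold changes of 0.49, 0.72 and 0.69, were not called but did not overlap between the groups either. The neuronal miRNA mmu-mir-124-3p was at 1.43 ± 0.56 CPM (SD, n = 3) and 1.52 ± 0.41 CPM (SD, n = 3), and mmu-mir-219a-5p of oligodendrocytes had 9 counts in all 6 libraries. The 8 smooth muscle and stromal miRNAs summed to 262885 to 355074 CPM and 283792 to 362508 CPM, with overlap, but mmu-mir-143-3p alone held means of 314413 and 318524 CPM of this. The stromal mmu-mir-199a-5p, mmu-mir-199a-3p, mmu-mir-152-3p and mmu-mir-214-3p had log2 fold changes of 0.62, 0.53, 0.35 and 0.28, and the first was called higher. The muscle miRNAs mmu-mir-143-3p, mmu-mir-1a-3p, mmu-mir-133a-3p and mmu-mir-145a-5p had -0.02, -0.33, -0.36 and -1.52, without a call. The 2 endothelial rows of mir-126a summed to 6860 to 7339 CPM and 5144 to 5558 CPM, without a call, and of the 4 erythroid miRNAs tested 0 were called. The part of these cell types in the rise of the domain miRNAs was not tested.

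**Figure D4:**
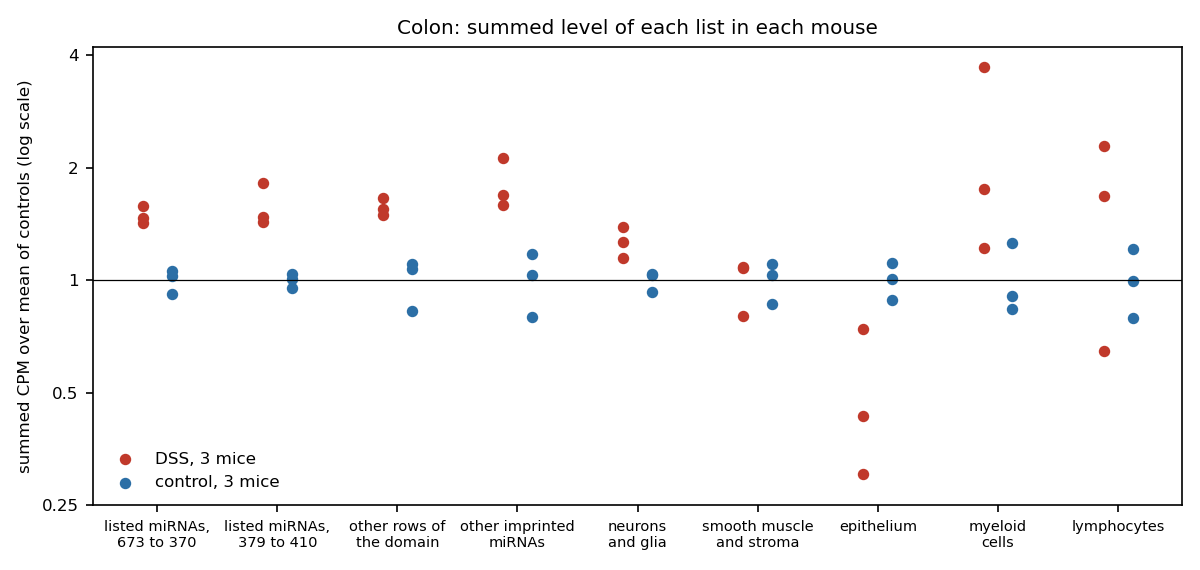
Summed level in colon of the listed miRNAs, the other domain rows, other imprinted miRNAs and 5 lists of cell type markers, in each DSS mouse (red) and control mouse (blue), divided by the mean of the controls (log scale). The proximal and distal sums lie above 1 in all 3 DSS mice, with mean ratios of 1.49 and 1.57, the epithelial sum lies below 1 (mean ratio 0.492), and the smooth muscle and stromal sum overlaps between groups (mean ratio 0.987).

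In blood, the domain was near the limit of detection. The listed miRNAs summed to 320, 529 and 246 counts in DSS mice 1, 7 and 9 and to 631, 240 and 293 counts in control mice 2, 4 and 8. Of the 54, 40 had a count in at least 1 blood library, 16 had a count in all 6 and 14 had 0 counts in all 6. A count of 0 over 6 blood libraries allows up to 0.0191 CPM, taking 3 counts as the limit and covering counting error only.

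Over the pooled totals the listed miRNAs were 256-fold lower in blood than in colon, and 56.0-fold lower when the counts of mir-486a-5p and mir-486b-5p were left out of the blood totals. In a fit of all 12 libraries edgeR called 47 of 47 listed miRNAs lower in blood, where 51.0% of all 680 miRNAs tested were called lower. Most of the 47 passed the filter through colon alone, where they were high, as 8 passed it in blood, so their count is a description. With at least 10 counts in every library 5 were left, and these 5 were called lower, as were 115 of all 288 tested. For the 23 with more than 3 counts in blood the ratio of colon to blood was 81.9 to 904, with a median of 239. It was 81.9 for mmu-mir-494-3p, 214.5 for mmu-mir-127-3p, 705 for mmu-mir-379-5p and 904 for mmu-mir-411-5p, the last on 19 counts in blood. These ratios pool DSS and control mice. They and the limits that follow use the full blood totals. With mir-486a-5p and mir-486b-5p left out of the totals each would be lower, as the ratio of the sum was. On these totals mmu-mir-369-3p, at 648 counts in colon and 0 in blood, was at least 328.9-fold lower in blood, and mmu-mir-487b-3p and mmu-mir-136-5p at least 197-fold and 157-fold. With each mouse as a replicate block 47 were called as well.

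**Figure D5:**
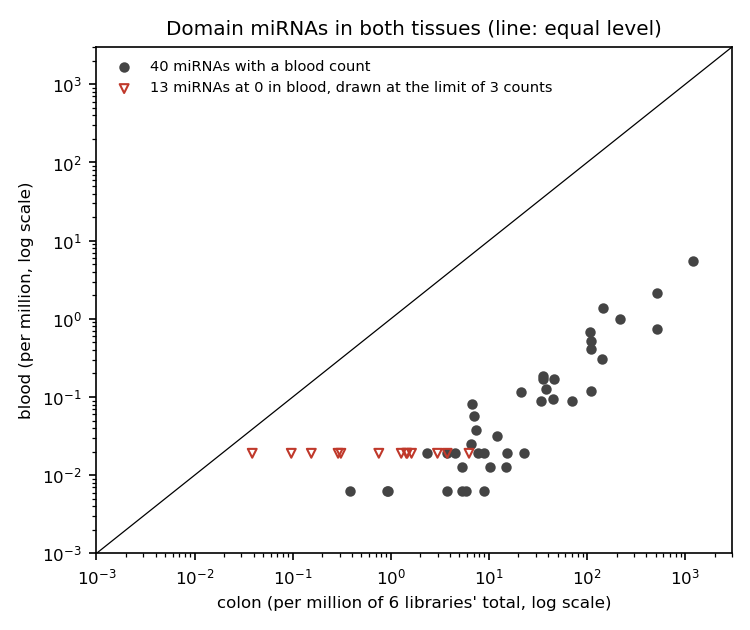
Level of each listed domain miRNA in blood against colon, as CPM of the summed totals of 6 libraries each, on log axes, with a line where both are equal. All 53 miRNAs with a count in colon lie below the line on these totals, which include mir-486a-5p and mir-486b-5p in blood, and the 13 at 0 in blood are drawn as open triangles at the limit of 3 counts.

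The most abundant listed miRNAs in blood were also those in colon, but their order below the first differed. Row mmu-mir-379-5p had rank 2 in colon and rank 5 in blood. Row mmu-mir-127-3p came first in both, with 38.8% of the listed counts in blood, followed in blood by mmu-mir-541-5p, mmu-mir-434-3p, mmu-mir-434-5p and mmu-mir-379-5p. Their levels over the 6 mice were 5.79 ± 3.98, 2.22 ± 0.955, 1.36 ± 0.695, 1.07 ± 0.535 and 0.733 ± 0.502 CPM (SD, n = 6). In this order each differed from the next by less than the SD of the more abundant one. That SD is the spread between mice of both groups, not that of the order within a library. In each of the 6 blood libraries mmu-mir-127-3p was above mmu-mir-541-5p.

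No listed miRNA was called in blood between DSS and control mice. The filter kept 8 of the 54, among 484 miRNAs, of which edgeR called 0 overall (percent called 0). At an unadjusted p under 0.05 there were 1 of the 8 and 56 of the 484. DESeq2 called 10 miRNAs in blood and limma 0, and neither called a listed one. Among the 8 the log2 fold change was below 0 for 7, with a median of -0.66 against -0.05 for all. Every DSS mouse was below every control mouse for 2 of the 8, against 9.92% of all. With factors set over all 12 libraries both overlapped.

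These were mmu-mir-541-5p and mmu-mir-379-5p. Row mmu-mir-541-5p was at 1.64, 1.81 and 1.43 CPM in DSS mice and at 3.999, 2.59 and 1.87 CPM in controls, with a log2 fold change of -0.78 ± 0.32 (SE), an unadjusted p of 0.0374 and an adjusted p of 0.394 by edgeR, and the log2 fold change was -0.39 without control mouse 2. Row mmu-mir-379-5p was at 0.604, 0.548 and 0.0923 CPM against 1.62, 0.691 and 0.848 CPM, with a log2 fold change of -1.26 ± 0.57 (SE) and an adjusted p of 0.420, and it was -0.78 without control mouse 2 and -0.82 without DSS mouse 9. The value of 0.0923 CPM rests on 2 counts.

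The most abundant, mmu-mir-127-3p, was at 2.21, 7.61 and 5.08 CPM in DSS mice and at 12.9, 4.03 and 2.88 CPM in controls, with overlap. Its log2 fold change was -0.42 ± 0.62 (SE), and the sign turned without control mouse 2 (0.58) and without DSS mouse 1 (0.0077). Arm mmu-mir-434-3p was at 0.805, 2.19 and 1.11 CPM against 2.29, 1.04 and 0.746 CPM, and arm mmu-mir-434-5p at 0.453, 1.19 and 0.969 CPM against 1.80, 1.50 and 0.509 CPM. Both overlapped, with log2 fold changes of 0.02 and -0.53. The other 3 tested, mmu-mir-409-3p, mmu-mir-381-3p and mmu-mir-433-3p, had log2 fold changes of -0.44, -0.79 and -0.91 with adjusted p of 0.517 to 0.719. With a mouse left out they were -0.62 to -0.12, -1.10 to -0.48 and -2.003 to -0.42, and that of mmu-mir-434-5p was -0.88 to -0.12. The other 46 listed miRNAs did not pass the filter in blood, and without a filter 0 of the 40 with a blood count were called, with 3 at an unadjusted p under 0.05, where 25 of all 1121 were called.

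Whether the response to DSS differed between the tissues was tested as an interaction over all 12 libraries. Of the 47 listed miRNAs tested 0 were called by edgeR, as of all 680 (percent called 0), and 7 had an unadjusted p under 0.05, among 94 of all. Most of the 47 entered this fit through colon alone, and 8 passed the filter in blood, so for most of them a count of 0 says nothing about a difference between the tissues. The difference, blood minus colon, was -1.16 ± 0.43 (SE) on the log2 scale for mmu-mir-541-5p and -1.53 ± 0.67 (SE) for mmu-mir-379-5p, with adjusted p of 0.300 and 0.322. DESeq2 called 37 of all 1405 miRNAs, 29 of them with a more negative effect in blood, and among these were 5 of 53 listed miRNAs: mmu-mir-379-5p, mmu-mir-381-3p, mmu-mir-409-3p, mmu-mir-485-5p and mmu-mir-541-5p, with adjusted p of 0.00320 to 0.0425. With the mouse as a replicate block edgeR called 0 of them.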

How the data were processed

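Small RNA of colon and whole blood was sequenced. The authors trimmed reads with Flexbar, collapsed them with fastx-toolkit, counted them on mature miRNAs of miRBase 22 with the quantifier of miRDeep2, and deposited unnormalized counts. A second deposited table per tissue holds a normalized signal, the count divided by a DESeq2 size factor, used here only in an alternative. The genome build of the counting is not given in the sources used here, and strand and molecular identifiers are not stated for it.

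The deposited counts went into edgeR (4.0.16, R 4.3.3): filterByExpr, TMM factors, glmQLFit and glmQLFTest, without robust dispersion, in each tissue alone or, for tissue and interaction contrasts, over all 12 libraries. Standard errors were back-calculated from the log2 fold change and F. Alternatives were RLE, upper-quartile or no factors, other filters, DESeq2 (1.42.0), limma (3.58.1) on log2(signal + 1), each mouse left out, the labels' grouping, and the mouse as a replicate block. Python (3.11.15) was used for tables. Tests were tested on simulated counts. CPM is not divided by length, as mature miRNAs of the list have 19 to 25 bases.

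The members, the marker lists and the tests were chosen with earlier results of these data known. Every listed miRNA may be named. Values in every library are given for called ones (at most 10 in each tissue by p), the 10 most abundant in colon and 5 in blood, their other arms, and the 3 with the largest fold change in each direction without overlap. Calls rest on mice as labelled separate samples. Colon and blood of a mouse share its number in the titles and so pair, and the check of their deviations from group means over 288 miRNAs gave correlations of -0.28 to 0.07. Counting intervals and limits cover counting error only. Positions are from RefSeq and GENCODE vM21 (GRCm38).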

Additional observations from a re-analysis of the deposited data

How the results depend on the processing

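Of the 14 listed miRNAs called in colon, the number moved with the scaling and the mice used. It was 2 with RLE factors, 1 with upper-quartile factors, 6 by limma, 0 with all 12 libraries in 1 fit and 0 with the grouping of the disease state label, and 0 to 7 with a mouse left out. It was 18 with library totals alone (47 of all 542 miRNAs), 10 without a filter (76 of 1300), 12 with at least 10 counts in every library (51 of 454) and 12 by DESeq2 (74 of 1300). The cause was not tested. Library totals moved the median log2 fold change of all miRNAs from 0.04 to 0.26. The median of the listed miRNAs minus that of all was 0.50 to 0.59 over the 14 alternatives that kept the grouping. In blood the count was 0 under each alternative run. For the difference between tissues it was 0 under each but DESeq2, which gave 5, and the replicate block of the mouse gave 0. For blood against colon it was 46 to 52 under each alternative but the minimum of 10 counts, which left 5 to test and called 5, and the replicate block gave 47.

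Under the grouping of the disease state label 7 of the 47 log2 fold changes in colon were above 0, among them that of mmu-mir-541-5p at 0.12, and 40 were below. Those of the miRNAs with values in every library that turned negative were -0.44 for mmu-mir-494-3p, -0.25 for mmu-mir-337-5p, -0.36 for mmu-mir-369-3p, -0.10 for mmu-mir-434-5p, -0.24 for mmu-mir-409-5p, -0.16 for mmu-mir-493-5p, -0.26 for mmu-mir-379-3p, -0.11 for mmu-mir-434-3p, -0.17 for mmu-mir-409-3p, -0.12 for mmu-mir-341-3p, -0.14 for mmu-mir-127-3p, -0.0022 for mmu-mir-379-5p, -0.18 for mmu-mir-382-5p, -0.057 for mmu-mir-381-3p, -0.050 for mmu-mir-411-5p, -0.16 for mmu-mir-433-3p, -0.31 for mmu-mir-369-5p and -0.29 for mmu-mir-382-3p. In blood that grouping turned them positive: 0.45 for mmu-mir-434-5p, 0.28 for mmu-mir-409-3p, 0.30 for mmu-mir-127-3p, 0.90 for mmu-mir-379-5p, 0.67 for mmu-mir-541-5p and 0.56 for mmu-mir-433-3p. Near 0 in blood, mmu-mir-434-3p was at -0.019 with the minimum of 10 counts and at -0.47 to 0.69 with a mouse left out, and mmu-mir-127-3p at -0.84 to 0.58. The listed miRNAs had 240 to 631 counts in a blood library, which limits the blood values.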
